A study of Homo sapiens with 6 samples.

Results

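GAS5, SNHG1, SNHG5, SNHG6, SNHG7, SNHG8, SNHG12 and ZFAS1 are noncoding genes whose introns carry small nucleolar RNAs (snoRNAs). They were selected by symbol from the table of read counts. Of these 8 genes, 7 were found under their own symbol and 1, ZFAS1, under its older symbol ZNFX1-AS1, among 23355 entries that have a symbol. The counts came from the human fetal lung fibroblast line HFL-1 after transfection with a negative control siRNA (siNTC) or with one of 2 siRNAs against TAZ (siTAZ #1 and siTAZ #2). Each of the 3 groups had 2 libraries made 48 h after transfection, and all groups received the transfection reagent. The knockdown was transient and was made in a single cell line. TAZ, the product of WWTR1, is a coactivator of TEAD transcription factors in the Hippo pathway.

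A snoRNA host gene makes 2 products from a single transcript. After splicing, the introns are trimmed to snoRNAs that guide 2'-O-methylation (box C/D) or pseudouridylation (box H/ACA) of ribosomal RNA, while the joined exons form a long noncoding RNA. Many hosts begin with a 5' terminal oligopyrimidine (TOP) tract, as ribosomal protein mRNAs do, and their spliced RNAs are typical substrates of nonsense-mediated decay, which is coupled to translation. GAS5 was named for its accumulation in growth-arrested cells, and its exon RNA is known as a decoy that binds the glucocorticoid receptor.

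The libraries held between 15648055 and 32078188 counts. In siTAZ #1 replicate 2, the genes from RANGAP1 on chromosome 22 through chromosomes X and Y held 0.243% of the counts, against 3.3% to 3.48% in the other libraries. None of the 8 host genes lies there. This library entered the shared estimate of the spread, so some counts of calls are also given without it or without the genes of that region. WWTR1, the targeted gene, stood at 132 and 131 CPM (counts scaled to a library total of 1000000) with siNTC, 26.4 and 28.4 with siTAZ #1 and 46.1 and 43.1 with siTAZ #2. It fell by 2.26 and 1.56 on the log2 scale with the respective siRNAs (FDR 0.000617 and 0.000681, edgeR's quasi-likelihood test). The 9 fibroblast markers summed to between 23200 and 35000 CPM per library, against 41.5 to 64.9 CPM for 6 epithelial, 26.1 to 47.3 for 5 endothelial and 38.2 to 75.9 for 5 leukocyte markers.

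The starts of the host genes are shown first, because they share a feature that their selection did not use. In RefSeq windows on GRCh38.p14, 5 of the 7 host genes with a window had TATAA within the 50 bases before the annotated start, at 28 to 34 bases before it. Of all 35116 promoter windows, 4.74% had TATAA there. All 5 also had a run of at least 5 pyrimidines that begins with C within 20 bases of the start, a run that was found in 47.9% of all windows, and together with TATAA in 2.13%. TATAA was searched on the sense strand after these sequences had been read. In the following stretches of 50 bases on either side of the start, capitals mark TATAA and the pyrimidine run.
SNHG5, chr6:85678684-85678783, minus strand: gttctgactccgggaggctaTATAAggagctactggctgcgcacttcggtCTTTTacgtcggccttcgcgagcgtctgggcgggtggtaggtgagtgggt
SNHG7, chr9:136728135-136728234, minus strand: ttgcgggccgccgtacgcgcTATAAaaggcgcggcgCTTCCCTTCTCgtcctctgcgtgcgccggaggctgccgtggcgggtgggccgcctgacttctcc
SNHG8, chr4:118278712-118278811, plus strand: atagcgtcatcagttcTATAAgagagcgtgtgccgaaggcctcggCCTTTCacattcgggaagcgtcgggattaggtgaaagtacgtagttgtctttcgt
SNHG12, chr1:28581824-28581923, minus strand: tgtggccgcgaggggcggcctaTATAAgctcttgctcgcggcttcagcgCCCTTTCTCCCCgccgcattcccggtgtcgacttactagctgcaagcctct
ZFAS1, chr20:49278592-49278691, plus strand: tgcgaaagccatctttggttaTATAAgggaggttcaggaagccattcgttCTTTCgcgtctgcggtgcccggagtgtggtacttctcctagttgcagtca

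For SNHG1, a pyrimidine run was found within 20 bases of the start, but no TATAA in the 50 bases before it. In the RefSeq window of GAS5, neither was found in these searched stretches. In the GENCODE transcript chosen as canonical for GAS5 on GRCh37 (chr1:173828135-173837127, minus strand), the first 40 bases open with such a run, shown in capitals, and these bases are not among the 50 on either side of the RefSeq start.
GAS5: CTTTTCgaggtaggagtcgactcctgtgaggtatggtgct
A run in the first 20 bases of the canonical transcript was found for 4 of 7 host genes read this way, against 27.1% of protein-coding and 24.6% of long noncoding transcripts. Of the motifs searched on both strands of the full windows of 250 bases before to 50 after the start, GGAATG, the core of TEAD sites, was present in 1 of 7 hosts (SNHG12) and in 14% of all promoters. CACGTG, the E-box, was present in SNHG7 and in 7.26% of promoters. TGACGTCA, the site of CREB and ATF factors, and TGATGNAA, the element bound by C/EBP-ATF dimers, were in none of the 7 and in 1.85% and 3.62% of promoters. These letters describe the windows and do not show binding. For GAS5, TATAA and these motifs were searched at the RefSeq start only, not at the start of the canonical transcript.

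The snoRNAs inside the hosts are short, and the sequences of those that GENCODE places within GAS5 and ZFAS1 on GRCh37 show how they are built. Capitals mark the core TGATG of box C near the 5' end and CTGA of box D near the 3' end.
SNORD78 (GAS5), chr1:173834760-173834824, minus strand: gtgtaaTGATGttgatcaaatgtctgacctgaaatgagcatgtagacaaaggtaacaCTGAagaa
SNORD12 (ZFAS1), chr20:47897220-47897309, plus strand: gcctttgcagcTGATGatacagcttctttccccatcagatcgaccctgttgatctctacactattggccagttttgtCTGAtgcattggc
SNORD12B (ZFAS1), chr20:47896856-47896946, plus strand: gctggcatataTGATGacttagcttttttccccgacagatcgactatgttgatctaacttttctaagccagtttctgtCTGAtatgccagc
SNORD12C (ZFAS1), chr20:47895477-47895565, plus strand: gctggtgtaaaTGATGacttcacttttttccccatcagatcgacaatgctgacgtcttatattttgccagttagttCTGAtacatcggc
The 3 snoRNAs of ZFAS1 are relatives, and their longest stretch in common is the 9 bases cagatcgac. ZFAS1 thus carries a single snoRNA family, whereas the 10 snoRNAs of GAS5 bear separate names.

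Both siRNAs were followed by lower levels of the host genes. Summed over the 8, they stood at 317 and 326 CPM with siNTC, at 190 and 198 CPM with siTAZ #1, and at 156 and 153 CPM with siTAZ #2. With siTAZ #1, 4 of the 8 fell (GAS5, SNHG1, SNHG8 and ZFAS1) and 0 rose, while over all 14053 genes tested 9.78% were called lower and 10.8% higher. With siTAZ #2, 7 of the 8 fell, all but SNHG6, and 0 rose, while 14.4% of all genes were called lower and 14.1% higher. The median log2 fold change of the 8 was -0.73 with siTAZ #1 and -1.10 with siTAZ #2, beside 0.02 and 0.01 over all genes. In these bulk samples, fewer cells that express a gene and less RNA per cell cannot be told apart. Both comparisons share the siNTC libraries, so they are not independent.

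Each of the 8 log2 fold changes was below 0 with both siRNAs, under the main test and under each of 18 alternative settings. For 7 of the 8 genes, SNHG5 being the exception, all 4 siTAZ libraries lay below both siNTC libraries, an order found in 17.5% of all genes. Taking siTAZ #1 alone, both libraries lay below both siNTC libraries for 7 genes (31.1% of all genes), and with siTAZ #2 alone for all 8 (35.5%). Without siTAZ #1 replicate 2, the calls were the same 4 and the same 7 genes. Without siNTC replicate 1 or replicate 2, fewer hosts were called with both siRNAs, as were fewer of all genes. The median of the 8 was then -0.78 or -0.70 with siTAZ #1 and -1.22 or -1.10 with siTAZ #2. Fewer hosts and fewer of all genes were also called without siTAZ #2 replicate 2 (medians -0.75 and -0.96). Without siTAZ #2 replicate 1 (medians -0.73 and -1.26), fewer hosts were called with siTAZ #1, while with siTAZ #2 no host lost its call.

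**Figure D1:**
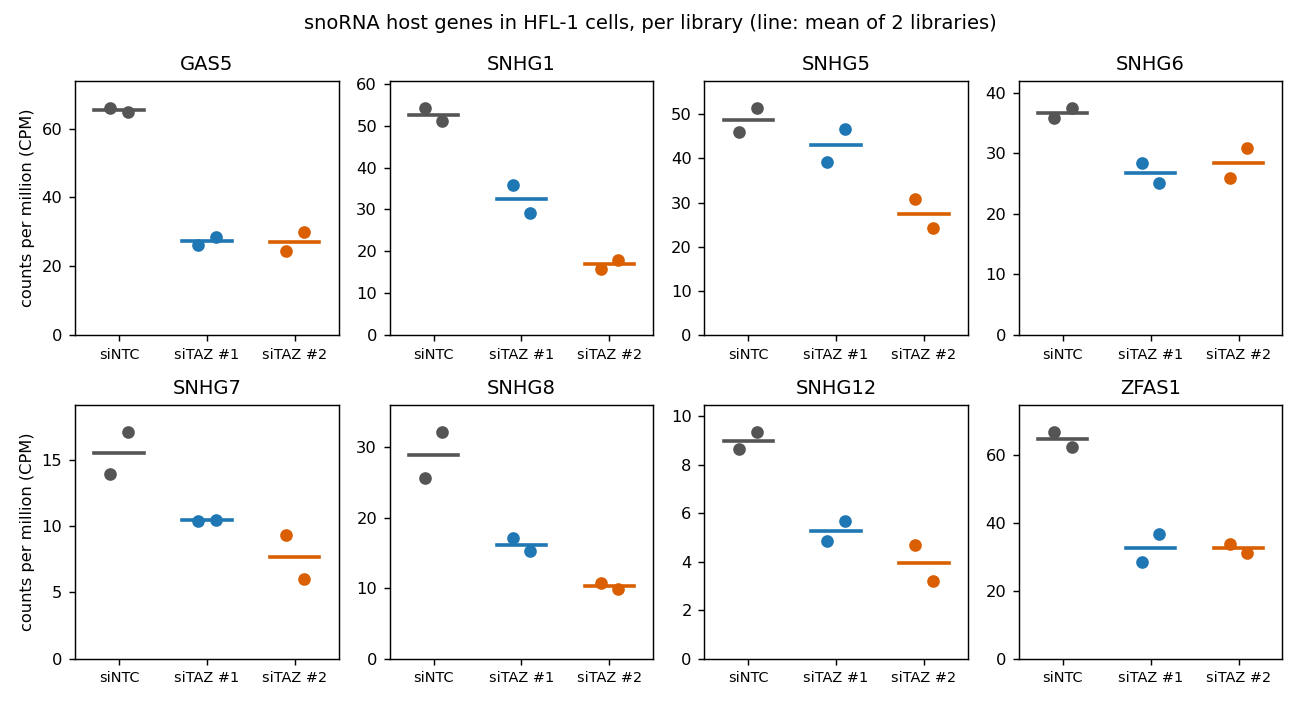
Level of each of the 8 host genes in CPM (vertical axis, from 0) in the 2 libraries (points) of siNTC, siTAZ #1 and siTAZ #2 (horizontal axis), with the mean of each group as a line. For GAS5 and ZFAS1 the siTAZ groups sit at like levels, for SNHG1 and SNHG8 the siTAZ #2 points lie below those of siTAZ #1, and for SNHG5 the points of siTAZ #1 and siNTC overlap.

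GAS5, on chr1:173827697-173838020 (GRCh37, minus strand), hosts 10 box C/D snoRNAs. It stood at 65.9 and 64.8 CPM with siNTC, 26.1 and 28.4 with siTAZ #1, and 24.5 and 29.8 with siTAZ #2. The siNTC libraries were the high ones, and the siTAZ libraries, which did not overlap with them, overlapped with one another. With siTAZ #1 GAS5 fell to 0.417 of the siNTC level (log2 fold change -1.26, SE 0.14, FDR 0.0038). With siTAZ #2 it fell to 0.416 (-1.27, SE 0.14, FDR 0.00255). The difference between the siRNAs was 0.01 on the log2 scale, with a 95% interval from -0.34 to 0.35 (FDR 0.982). GAS5 is on the study's own list of genes lowered by both siRNAs, which was drawn from these libraries, so its direction against siNTC is not independent evidence. Without GAS5, the median of the remaining hosts was -0.70 with siTAZ #1 and -1.02 with siTAZ #2.

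ZFAS1 hosts the 3 snoRNAs shown above and is named for its place beside the start of ZNFX1 (chr20:47894715-47916137, plus strand). It stood at 66.6 and 62.4 CPM with siNTC, 28.4 and 36.7 with siTAZ #1, and 33.8 and 31.1 with siTAZ #2. As for GAS5, all siTAZ libraries lay below both siNTC libraries, and the siTAZ #2 values lay within the range of siTAZ #1. ZFAS1 fell with siTAZ #1 (-0.99, SE 0.16, FDR 0.0107) and with siTAZ #2 (-0.99, SE 0.16, FDR 0.00781). The siRNAs differed by 0.01, with a 95% interval from -0.38 to 0.39.

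SNHG1, host of 8 box C/D snoRNAs on chr11:62619450-62623425 (minus strand), was the host whose levels separated the siRNAs most. Its levels were 54.1 and 51.0 CPM with siNTC, 35.7 and 29.1 with siTAZ #1 and 15.8 and 18.0 with siTAZ #2, so the 3 groups did not overlap. SNHG1 fell with siTAZ #1 (-0.70, SE 0.15, FDR 0.0269) and with siTAZ #2 (-1.64, SE 0.16, FDR 0.00166). The direct test between the siRNAs gave 0.94 higher with siTAZ #1 on the log2 scale (SE 0.15, FDR 0.00796).

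SNHG5, with a pair of box C/D snoRNAs on chr6:86360209-86388650 (minus strand), behaved differently with siTAZ #1. Its libraries gave 46.0 and 51.4 CPM with siNTC, 39.2 and 46.8 with siTAZ #1, and 30.9 and 24.2 with siTAZ #2. The siTAZ #1 range overlapped that of siNTC, and both siTAZ #2 libraries lay below all others. The log2 fold change was -0.18 with siTAZ #1 (SE 0.17, FDR 0.505), while with siTAZ #2 SNHG5 fell (-0.82, SE 0.17, FDR 0.0185). Between the siRNAs, the difference was 0.64 (SE 0.17, FDR 0.0382). SNHG6, which carries 1 box C/D snoRNA, did not pass the test with either siRNA. Its levels were 35.8 and 37.4 CPM with siNTC, 28.4 and 25.1 with siTAZ #1, and 25.9 and 30.9 with siTAZ #2. All siTAZ values lay below both siNTC values, with log2 fold changes of -0.45 (SE 0.14, FDR 0.0774) and -0.37 (SE 0.14, FDR 0.111).

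The remaining hosts carry H/ACA snoRNAs. SNHG8, host of SNORA24 on chr4:119199858-119206471 (plus strand), stood at 25.7 and 32.2 CPM with siNTC, 17.1 and 15.2 with siTAZ #1 and 10.7 and 9.91 with siTAZ #2. The groups did not overlap, and siTAZ #2 was the lowest. SNHG8 fell with siTAZ #1 (-0.84, SE 0.18, FDR 0.0244) and with siTAZ #2 (-1.49, SE 0.18, FDR 0.00322). The siRNAs differed by 0.65 (SE 0.18, FDR 0.0413).

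SNHG7 (chr9:139615818-139622636, minus strand) was among the lower hosts, with 13.9 and 17.1 CPM under siNTC, 10.4 and 10.5 under siTAZ #1, and 9.35 and 5.98 under siTAZ #2. The siTAZ #2 replicates were farther apart than those of siTAZ #1, and all siTAZ values were below siNTC. SNHG7 fell with siTAZ #2 (-1.02, SE 0.26, FDR 0.036) while siTAZ #1 gave -0.57 (SE 0.26, FDR 0.178). SNHG12 (chr1:28905050-28909644, minus strand) carries both kinds of snoRNA and had 8.62 and 9.34 CPM with siNTC, 4.84 and 5.67 with siTAZ #1, and 4.67 and 3.20 with siTAZ #2. Every siTAZ value was below both siNTC values. SNHG12 fell with siTAZ #2 (-1.18, SE 0.26, FDR 0.0223), and its log2 fold change with siTAZ #1 was -0.77 (SE 0.26, FDR 0.0897). SNHG12 rested on 53 to 185 counts per library, fewer than for GAS5 (405 to 1040).

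**Figure D2:**
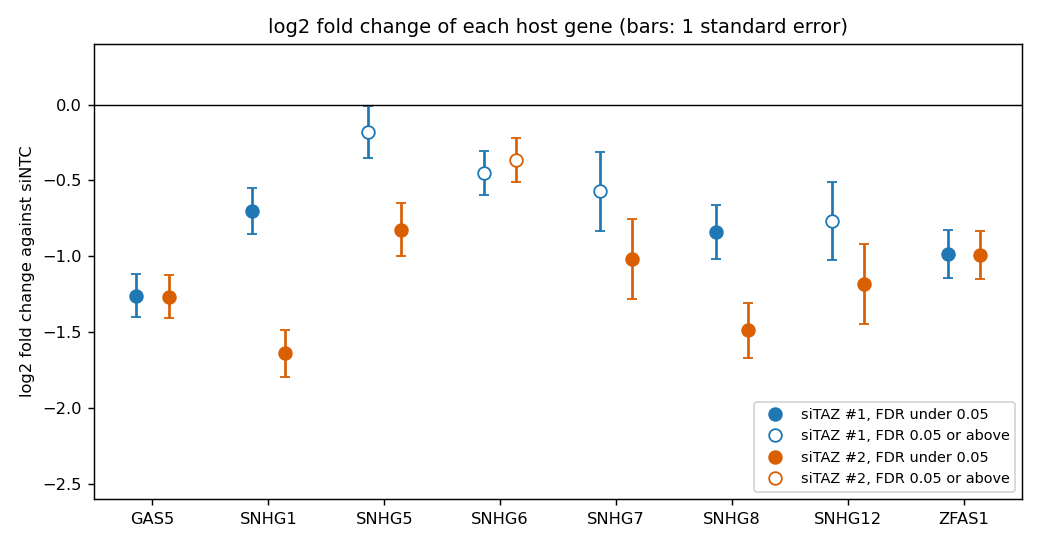
log2 fold change against siNTC (vertical axis) of the 8 host genes (horizontal axis) with siTAZ #1 (blue) and siTAZ #2 (orange), with bars of 1 standard error and filled points for an FDR under 0.05. Every point lies below 0, from -0.18 for SNHG5 with siTAZ #1 to -1.64 for SNHG1 with siTAZ #2.

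The 2 siRNAs were compared directly. Of the 8 hosts, 3 were higher with siTAZ #1 than with siTAZ #2 (SNHG1, SNHG5 and SNHG8) and 0 were lower, beside 15.2% of all genes higher and 13.4% lower. The other hosts had differences between -0.09 (SNHG6) and 0.44 (SNHG7), and the 95% intervals reached from -0.20 to 1.09 for SNHG7 and from -0.23 to 1.06 for SNHG12. WWTR1 itself was lower with siTAZ #1 than with siTAZ #2 by a log2 difference of -0.70 (FDR 0.00499), the opposite order to that of SNHG1, SNHG5 and SNHG8. Without siTAZ #1 replicate 2 the same 3 hosts were called. Offsets for GC content and length left 1 host called and moved the split over all genes from 2137 higher and 1883 lower to 2178 and 1167. With siTAZ #2 replicate 1 left out 0 were called, and with siTAZ #2 replicate 2 or either siNTC library left out, 1 (SNHG1).

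Levels of different genes were compared per length of transcript. Divided by the mean length of the annotated transcripts, GAS5 had the highest level with siNTC, at 75.4 ± 0.914 CPM per kb (SD, n = 2), followed by SNHG6 (55.8 ± 1.80) and ZFAS1 (51.0 ± 2.39). SNHG5 came next at 37.8 ± 2.93, then SNHG1 (31.7 ± 1.34) and SNHG8 (31.1 ± 4.95), whose values differed by less than their spread. The lowest were SNHG7 (12.1 ± 1.74) and SNHG12 (8.27 ± 0.468). With siTAZ #2, SNHG6 headed the order with 43.3 ± 5.42 CPM per kb, above GAS5 with 31.4 ± 4.32 and ZFAS1 with 25.7 ± 1.51. With siTAZ #1, SNHG6 (40.8 ± 3.53) and SNHG5 (33.4 ± 4.14) stood above GAS5 (31.5 ± 1.88), but SNHG5 and GAS5 differed by less than the spread. Divided by the longest transcript instead, GAS5 and SNHG6 stood at 20.8 and 20.1 CPM per kb with siNTC and SNHG5 fell behind SNHG1 (8.45 against 13.9).

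The levels of the hosted snoRNAs were compared with those of their hosts. The table held rows for 31 snoRNAs of the 8 hosts, of which 28 had a count and 15 passed the filter on low counts, and the highest, SNORD80 of GAS5, had 258 counts over the 6 libraries. The 10 snoRNAs of GAS5 together had 184 and 183 counts with siNTC, 65 and 205 with siTAZ #1, and 148 and 53 with siTAZ #2. Per 100 counts of GAS5 this was 17.7 and 17.8, then 16.0 and 22.1, then 28.2 and 10.7, so the siTAZ libraries lay on both sides of siNTC. The 8 snoRNAs of SNHG1 had 15.2 and 15.2 counts per 100 host counts with siNTC, 13.2 and 14.5 with siTAZ #1, and 16.9 and 14.4 with siTAZ #2, in a narrow range while the host fell. For the 4 of SNHG12 the values were 16.9 and 18.9, then 24.0 and 17.8, then 18.0 and 17.0. For SNORA24 of SNHG8 they were 4.2 and 2.94, then 1.13 and 0.402, then 0.873 and 0, lower in every siTAZ library. For SNORD87 of SNHG6 they were 0 and 0.169, then 5 and 2.32, then 0 and 0.391. The siTAZ values of SNHG5 and ZFAS1 overlapped those of siNTC. The values of these hosts rest on few snoRNA counts. Whether such counts come from mature snoRNAs or from unspliced host transcripts cannot be told apart in these counts, and the size range of the sequenced RNA was not given in the sources used here.

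**Figure D3:**
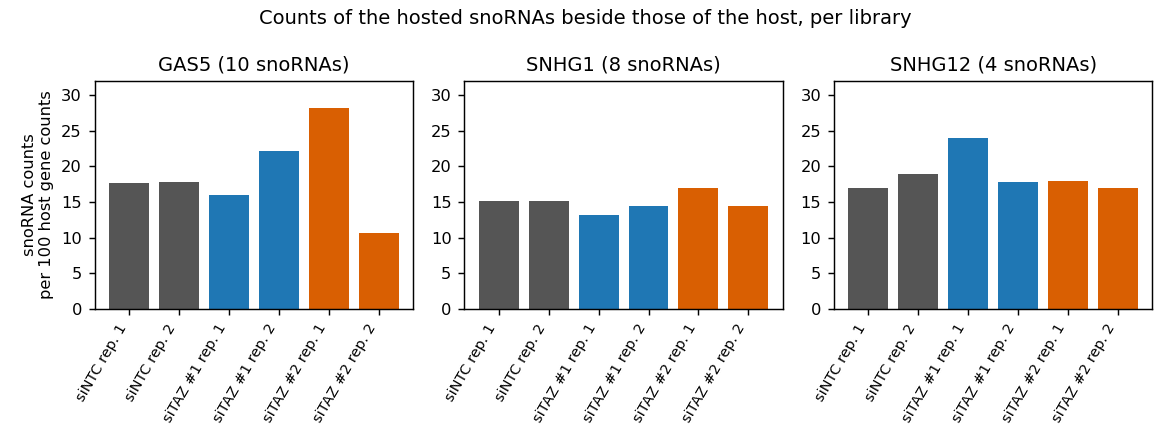
Summed counts of the hosted snoRNAs per 100 counts of the host gene (vertical axis, from 0) in each of the 6 libraries (bars) for GAS5, SNHG1 and SNHG12. The SNHG1 bars stay between 13.2 and 16.9, whereas those of GAS5 run from 10.7 to 28.2, both ends being siTAZ #2 libraries.

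Most hosts lie head to head with, or overlap, a gene on the opposite strand, and the strand setting of the counting was not given in the sources used here, so reads from overlapping exons of the pair cannot be told apart. ZBTB37, which lies over GAS5 on the opposite strand without exon bases in common, had -0.79 (FDR 0.0956) with siTAZ #1 and fell with siTAZ #2 (-1.21, FDR 0.0257). SLC3A2, an amino acid transporter subunit gene that starts 51 bases from SNHG1, showed the reverse order of the siRNAs. It fell with siTAZ #1 (-0.69, FDR 0.00953) and had -0.24 with siTAZ #2 (FDR 0.14, or 0.0386 without siTAZ #1 replicate 2).

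PRSS12 overlaps 2487 of 6614 exon bases of SNHG8 and stood at a higher level, with a mean of 202 CPM under siNTC against 28.9 for SNHG8. It fell with siTAZ #1 (-0.71, FDR 0.0106) and had -0.29 with siTAZ #2 (FDR 0.107, or 0.0235 without siTAZ #1 replicate 2), whereas SNHG8 was lower with siTAZ #2. ZNFX1 overlaps 249 of 8315 exon bases of ZFAS1 and fell with both siRNAs (-0.71, FDR 0.0125; -0.50, FDR 0.0296). With either siNTC library left out, the calls of SLC3A2 and PRSS12 with siTAZ #1 and those of ZNFX1 with both siRNAs were lost (FDR 0.0619 to 0.148), and that of ZBTB37 with siTAZ #2 was lost without any 1 of the siNTC or siTAZ #2 libraries (0.0591 to 0.128). Of 24 neighbouring or overlapping genes, 16 were tested, of which 4 fell and 2 rose with siTAZ #1 and 6 fell and 0 rose with siTAZ #2. Of all genes, 9.78% and 10.8% were lower and higher with siTAZ #1 and 14.4% and 14.1% with siTAZ #2. The number of neighbours called varied with each library left out in turn, as did that of all genes.

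Outside the 8 host genes and WWTR1, the genes named in comparisons with siNTC gave 67 calls, of which 17 held with each library left out in turn. With siTAZ #1 these were PMP22 and KCNE4, and with siTAZ #2 they were NCL, RPL7A, RPL13A, NOP56, NOLC1, RUVBL1, PNRC2, ATF4, CARS, DDIT3, ANGPTL4, PMP22, EIF4B, BAZ2A and KCNE4. The other calls were lost without 1 or more libraries, most often a siNTC library. The shares of all genes called, for reading the lists, were those given above.

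Other host genes were read from a list of 15 further noncoding hosts, of which 10 were in the table and tested. With siTAZ #1 0 of the 10 passed the test in either direction, and with siTAZ #2 3 fell and 0 rose (SNHG3 -1.28, FDR 0.00978; SNHG15 -1.28, FDR 0.024; SNHG4 -2.53, FDR 0.0285). With siTAZ #1, the lowest FDR values were those of SNHG11 (-0.78, FDR 0.0539), SNHG3 (-0.73, FDR 0.0649) and EPB41L4A-AS1 (-0.85, FDR 0.196). The median of the 10 was -0.47 with siTAZ #1 and -0.59 with siTAZ #2. With each library left out in turn, 0 to 1 of them were called lower with siTAZ #1 and 0 to 4 with siTAZ #2.

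Among 43 protein-coding hosts tested, 9 fell and 0 rose with siTAZ #1, and 19 fell and 0 rose with siTAZ #2, with medians of -0.26 and -0.43. With siTAZ #1 the lowest FDR values were those of CHD8, a chromatin remodeller gene (-0.57, FDR 0.00726), SLC25A3, the mitochondrial phosphate carrier (-0.72, FDR 0.00924), and EEF2, the translation elongation factor (-0.62, FDR 0.0106). With siTAZ #2 they were those of NCL, which encodes the nucleolar protein nucleolin (-1.45, FDR 0.000922), RPL7A (-0.83, FDR 0.00173) and RPL13A (-1.49, FDR 0.002). Of the 43, 22 encode ribosomal proteins, of which 5 fell with siTAZ #1 and 12 with siTAZ #2. Of the other 21, 4 and 7 fell. More of the 43 were called lower with each siRNA without siTAZ #1 replicate 2, and fewer without either siNTC library. The number of all genes called lower moved the same way.

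Ribosomal protein mRNAs and other TOP mRNAs were read as lists, since many hosts are known to begin with a TOP tract. Of 80 ribosomal protein genes tested, 8 fell and 1 rose with siTAZ #1, and 27 fell and 1 rose with siTAZ #2, with medians of -0.17 and -0.35. Of 15 other TOP mRNAs, 2 fell with siTAZ #1 and 8 with siTAZ #2, 0 rose, and the medians were -0.13 and -0.54. EEF2 and EIF4B, a helicase cofactor of initiation, fell with both siRNAs (EEF2 -0.62 and -0.68; EIF4B -0.36, FDR 0.0201, and -0.65, FDR 0.00252). EEF1A1 (-0.67, FDR 0.0063) and the nucleolar chaperone gene NPM1 (-1.27, FDR 0.00737) fell with siTAZ #2. The shares called lower with siTAZ #1 in both lists were near those of all genes. Without siTAZ #1 replicate 2, 24 and 48 of the 80 ribosomal protein genes and 6 and 11 of the 15 other TOP mRNAs were called lower, beside 11.1% and 20.6% of all genes. Without siTAZ #1 replicate 1, more ribosomal protein genes were called lower and more were called higher with siTAZ #1, as were more of all genes in both directions. With either siNTC library left out, fewer genes of both lists were called lower with each siRNA, as were fewer of all genes.

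The proteins that bind snoRNAs were mostly not called. Of 8 core proteins of snoRNA particles, 0 passed with siTAZ #1, and 3 fell and 0 rose with siTAZ #2. These were the box C/D proteins NOP56 (-0.78, FDR 0.00311), FBL, the methyltransferase fibrillarin (-0.54, FDR 0.00746), and NOP58 (-0.68, FDR 0.0261). NHP2L1 and DKC1 lie in the region that siTAZ #1 replicate 2 lacks. DKC1, the pseudouridine synthase, had 117 CPM in siTAZ #1 replicate 1 and 1.04 in replicate 2, so its log2 fold change of -0.96 with siTAZ #1 rests on that library (0.04 without it). With siTAZ #1 replicate 1 left out, only the library that lacks this region remained for siTAZ #1. The log2 fold changes of DKC1 and NHP2L1 were then -6.76 and -6.07. FBL and NOP58 lost their calls with siTAZ #2 when some of the libraries were left out. Of 11 assembly factors, 0 fell and 1 rose with siTAZ #1 (TGS1, which hypermethylates snoRNA caps, 0.81, FDR 0.0115). With siTAZ #2 2 fell and 1 rose. NOLC1, a nucleolar chaperone of snoRNA particles, had the largest fall of the 11 (-1.90, FDR 0.000503), RUVBL1 followed (-0.79, FDR 0.00378), and PIH1D1 rose (0.56, FDR 0.0295). TGS1 lost its call with either siNTC library left out (FDR 0.0824 and 0.105), and PIH1D1 without any 1 of the siNTC or siTAZ #2 libraries (FDR 0.0805 to 0.171).

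**Figure D4:**
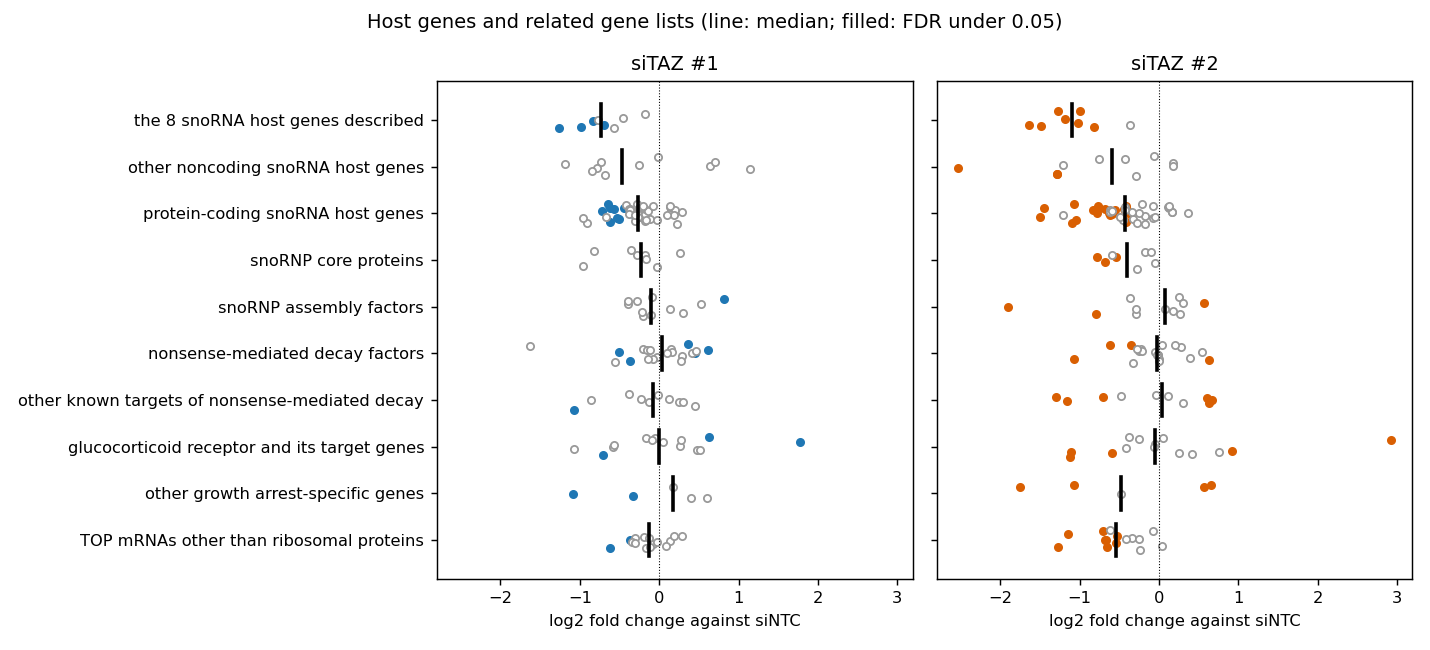
log2 fold change against siNTC (horizontal axis) of each tested gene (points, filled for an FDR under 0.05) in the 8 host genes and 9 related lists (rows), with siTAZ #1 on the left and siTAZ #2 on the right, and the median of each list as a line. The 8 host genes have medians of -0.73 and -1.10, and the lists of decay factors, decay targets and glucocorticoid receptor genes have medians near 0 with both siRNAs.

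Spliced host RNAs are degraded by nonsense-mediated decay, so its factors and other targets were read from lists. Of 20 factors, 2 fell and 3 rose with siTAZ #1, and 3 fell and 1 rose with siTAZ #2, beside 9.78% and 10.8%, then 14.4% and 14.1%, of all genes, so the counts were near or, for higher calls with siTAZ #2, below those shares. The same exon junction gene, RBM8A, rose with both (0.62, FDR 0.0101; 0.63, FDR 0.00695), and NBAS fell with both (-0.51, FDR 0.0116; -0.35, FDR 0.0278). With siTAZ #1 UPF1, the central helicase, fell (-0.36, FDR 0.024), and the kinase gene SMG1 (0.36, FDR 0.0347) and the release factor gene ETF1 (0.45, FDR 0.0107) rose. With siTAZ #2 PNRC2 (-1.06, FDR 0.00397) and EIF4A3 (-0.61, FDR 0.0305) fell. The number of factors called varied with each library left out in turn, as did that of all genes. RBM8A lost both calls without siNTC replicate 1 (FDR 0.0911 and 0.0655).

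Of 10 other known targets of the decay pathway, 1 fell and 0 rose with siTAZ #1 (GADD45B, -1.07, FDR 0.0119). With siTAZ #2, 3 fell and 3 rose. Those that fell were ATF4, the transcription factor of the amino acid response (-1.16, FDR 0.000741), CARS, a tRNA synthetase gene (-0.70, FDR 0.00308), and DDIT3, a stress-induced factor (-1.30, FDR 0.00527). Those that rose were TBL2 (0.60, FDR 0.0218), GADD45B (0.62, FDR 0.0452) and MAP3K14 (0.67, FDR 0.0392). The medians were -0.08 and 0.03, beside -0.73 and -1.10 for the 8 host genes. The number of targets called varied with each library left out in turn, as did that of all genes. The higher calls of TBL2, GADD45B and MAP3K14 were each lost without any 1 of the siNTC or siTAZ #2 libraries (FDR 0.0783 to 0.225).

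GAS5 RNA is known to bind the glucocorticoid receptor, so the receptor gene and its targets were read as a list. For the receptor gene NR3C1 the log2 fold changes were -0.05 (FDR 0.801) and, with siTAZ #2, -0.42 (FDR 0.0559). Of the 14 genes tested of the receptor and its targets, 1 fell and 2 rose with siTAZ #1, and 3 fell and 2 rose with siTAZ #2, counts near the shares of all genes (9.78% and 10.8%, then 14.4% and 14.1%). ANGPTL4 rose with both (1.78, FDR 0.0261; 2.92, FDR 0.00448). With siTAZ #1 the kinase gene SGK1 fell (-0.71, FDR 0.01) and NFKBIA rose (0.63, FDR 0.0123). With siTAZ #2 the phosphatase gene DUSP1 (-1.12, FDR 0.00633), FKBP5 (-0.59, FDR 0.0425) and BIRC3 (-1.11, FDR 0.0447) fell and the metallothionein gene MT2A rose (0.92, FDR 0.0122). The medians were -0.00 and -0.05. The number of the 14 called varied with each library left out in turn, as did that of all genes. Without siTAZ #1 replicate 2, NR3C1 passed the test with siTAZ #2 (-0.42).

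The other growth arrest-specific genes, named from the same kind of screen as GAS5, differed among themselves. Of 5 tested, 2 fell and 0 rose with siTAZ #1, and 2 fell and 2 rose with siTAZ #2. PMP22, first cloned as GAS3, fell with both siRNAs (-1.08, FDR 0.00381; -1.75, FDR 0.000803), and is also on the study's list drawn from these libraries. GAS6, a ligand of TAM receptors, fell with siTAZ #1 (-0.33, FDR 0.0476) and rose with siTAZ #2 (0.57, FDR 0.00695). GAS1 fell (-1.07, FDR 0.0175) and GAS7 rose (0.65, FDR 0.0294) with siTAZ #2. GAS6 lost its call with siTAZ #1 when any library but siTAZ #1 replicate 1 was left out (FDR 0.0567 to 0.242), and with siTAZ #2 when either siNTC library was left out (FDR 0.0628 and 0.0835). With siTAZ #2 the call of GAS1 was lost without any 1 of the siNTC or siTAZ #2 libraries (FDR 0.0613 to 0.0959), and that of GAS7 without siNTC replicate 1, siNTC replicate 2 or siTAZ #2 replicate 2 (FDR 0.0843 to 0.175).

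The genes whose log2 CPM over the 6 libraries ran most like that of GAS5, of 12004 with a mean count of at least 50, were TARSL2, a tRNA synthetase-like gene (Pearson r = 0.999), MKNK2, which encodes a kinase of eIF4E (0.998), BAZ2A, which encodes a subunit of a complex that silences ribosomal DNA (0.998), CNBP, which encodes a nucleic acid-binding zinc finger protein (0.997), and KCNE4, a potassium channel subunit gene (0.997). These values describe 3 groups of 2 libraries and share the same libraries and scaling. Having been chosen for running like GAS5, they were lower with both siRNAs by that choice, TARSL2 with log2 fold changes of -0.74 and -0.77 and KCNE4, also on the study's list, with -1.67 and -1.57. Among the other hosts, r with GAS5 was 0.96 for ZFAS1, 0.91 for SNHG6, 0.87 for SNHG8, 0.84 for SNHG12, 0.81 for SNHG1, 0.74 for SNHG7 and 0.60 for SNHG5. Among all these genes, r of SNHG5 stood at percentile 80.2, that of SNHG7 at 88, that of SNHG1 at 92 and that of ZFAS1 at 99.2.

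Markers of other cell types were read beside the host genes. The 5 leukocyte markers summed to 74.4 to 75.4 CPM with siNTC, 69.3 to 75.9 with siTAZ #1 and 38.2 to 49.0 with siTAZ #2. Nearly all of this was CD68, a lysosomal protein gene, while PTPRC, CD3E and MS4A1, which define leukocytes and B and T cells, had group means of 0.158 CPM or less. The 5 endothelial markers summed to 42.1 to 42.5, 46.2 to 47.3 and 26.1 to 31.3 CPM, of which TEK made up most, and the defining markers PECAM1 and CDH5 had group means of 0.427 CPM or less. The 6 epithelial markers summed to 46.0 to 46.4, 41.5 to 48.7 and 59.2 to 64.9 CPM. The fibroblast markers summed to 34900 to 35000 CPM with siNTC, 23200 to 24000 with siTAZ #1 and 27200 to 28900 with siTAZ #2. These 9 markers went both ways, with 4 called lower and 2 higher with siTAZ #1, and 5 lower and 2 higher with siTAZ #2. Of all genes, 9.78% and 10.8% were lower and higher with siTAZ #1 and 14.4% and 14.1% with siTAZ #2. Their part in the lower host gene levels was not tested.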

How the data were processed

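RNA of HFL-1 cells was measured in 3 groups of 2 libraries, taken by the labels as siNTC, siTAZ #1 and siTAZ #2. The authors deposited unnormalised counts of Ion Proton reads per gene. Their alignment used TMAP on hg19, and HTSeq did the counting (0.6.1 in the submitters' processing notes). The strand setting and counting mode are not given in the sources used here. Of 23368 entries, 13 with a date in place of a symbol were dropped (0.0458% to 0.0506% of counts). Positions on GRCh37 were found by GENCODE symbol for 21174 entries, 1861 of them through a RefSeq synonym. RefSeq promoters (GRCh38.p14) matched 7 of 8 hosts.

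Genes were filtered with filterByExpr, scaled by TMM and tested in R 4.3.3 with edgeR 4.0.16 (quasi-likelihood test, 1 fit of 6 libraries, Benjamini-Hochberg over 14053 genes, FDR under 0.05). An SE is the log2 fold change over the root of F, and intervals are at a level of 0.95. CPM uses TMM-scaled totals. Permuting 2 against 2 libraries cannot give a two-sided p below 0.333, so no permutation test was made. The labels number the replicates of each group, and the paper reports transfection of the 2 TAZ siRNAs in duplicate. Replicate libraries of a group differed by more than sampling noise (mean chi-square per gene 5.36 for siNTC, 83.7 for siTAZ #1 and 11.2 for siTAZ #2). The siTAZ #1 value includes the region whose counts are nearly absent from its replicate 2. It was not computed without that region, so it does not show how far these replicates differ elsewhere. The tests were tested on simulated data.

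Alternatives were DESeq2 1.42.0, edgeR's exact test or a fit using only the 4 libraries compared, scaling by library totals, RLE or upper quartile, testing without a filter, a mean count of at least 50, a replicate block, leaving out each library, an FDR of 0.1, dropping the genes between RANGAP1 and the end of Y, and offsets for GC content and length. Named genes were the 8 hosts, WWTR1, the 5 genes most like GAS5 (mean count of at least 50, prior count 2), overlapping and nearest genes, and from each list the 3 genes of lowest FDR per siRNA or, for lists of at most 8, all of them. SMG1, EIF4A3, UPF1, TBL2, GADD45B with siTAZ #2, MAP3K14, FKBP5, BIRC3, NR3C1, GAS1, GAS6, GAS7 and the TOP mRNAs past this rule were added as called or as the receptor itself. Members, lists and tests were chosen with earlier results of these data known. The result for 1 gene is not reported here.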

Additional observations from a re-analysis of the deposited data

Results flagged for a closer look

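A direct test between the siRNAs separated 3 host genes. On the log2 scale SNHG1 was higher with siTAZ #1 than with siTAZ #2 by 0.94 (mean 32.4 against 16.9 CPM), SNHG5 by 0.64 (43.0 against 27.5 CPM) and SNHG8 by 0.65 (16.2 against 10.3 CPM). For each of the 3, which were picked by the test on these same values, both siTAZ #1 libraries lay above both siTAZ #2 libraries. The same order was seen for SNHG7 and SNHG12, which were not called. Its share among all genes was not counted, so it is not read as a result about the hosts. Over the 18 alternatives the FDR of this difference reached 0.0916 for SNHG1, 0.337 for SNHG5 and 0.332 for SNHG8. The cause of the differences was not tested.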

How the results depend on the processing

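GAS5 was lower with both siRNAs and passed FDR 0.05 under all 18 alternatives, with log2 fold changes from -1.32 to -1.20 with siTAZ #1 and from -1.44 to -1.13 with siTAZ #2. Over the 24 values of the 8 genes and 3 comparisons, 360 of 432 alternative values kept the direction and the side of the threshold, 50 lost the call, 7 gained one and 15 changed sign. The changes of sign were in differences between the siRNAs close to 0. For GAS5 this difference was -0.031 with upper-quartile scaling, -0.0054 with library totals, -0.0025 with a mean count of at least 50, -0.010 without the genes between RANGAP1 and the end of Y, -0.062 with offsets for GC content and length, and from -0.13 to 0.16 with a library left out. For ZFAS1 it was -0.032, -0.0053, -0.0031 and -0.011 in the first 4 of these and from -0.19 to 0.18 with a library left out. For SNHG6 it ran from -0.21 to 0.056 with a library left out.

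With siTAZ #1 the exact test called 1 host lower and the replicate block 2, against 4, when 492 and 823 of all genes were called lower, against 1374. With siTAZ #2 the block called 5 hosts lower, when 1420 of all genes were called lower, against 2021. With some libraries left out fewer hosts were called with either siRNA, as were fewer of all genes. Between the siRNAs 3 were called higher in the main fit, 0 with the exact test, 1 with the fit of 4 libraries, 1 with the replicate block, 1 with the GC and length offsets and 0 to 3 with a library left out. Same-numbered libraries were not paired by the labels, and their deviations correlated at 0.00, 0.02 and -0.09 over 12005 genes. A crossed block with the numbers of siTAZ #1 exchanged, added after seeing the data (r = -0.24 without the missing region), called 2 higher and 0 lower. Of the other genes named, 3 changed sign with siTAZ #1 when 1 of its libraries was left out. They ran from -6.76 to 0.038 for DKC1, from -6.07 to 0.17 for NHP2L1 and from -0.14 to 0.025 for NR3C1. The common dispersion was 0.0807, and 0.0189 without the missing region.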

Other observations

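SNORD87, the snoRNA of SNHG6, had 0 and 1 counts with siNTC, 22 and 19 with siTAZ #1 and 0 and 2 with siTAZ #2, while SNHG6 had 440 and 819 counts with siTAZ #1. It did not pass the filter on low counts and was not tested. SNORA24, the snoRNA of SNHG8, had 17 and 15 counts with siNTC, 3 and 2 with siTAZ #1 and 2 and 0 with siTAZ #2. Replicates of 1 group differed widely for some snoRNAs of GAS5, such as SNORD74 with 30 and 1 counts and SNORD79 with 17 and 0 counts with siTAZ #2, and SNORD47 with 2 and 53 counts with siTAZ #1. These rows were named after their values were seen, and such intronic rows are covered by few reads.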
